A study of Mus musculus with 4 samples.

Results

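The transcription factor gene Klf2, its relative Klf3, the upstream factor gene Foxo1 and the trafficking receptor genes S1pr1, S1pr4, S1pr5, Cd69 and Gpr183 were followed in effector CD4 cells. These 8 genes, of 23990 gene symbols in the data, were chosen by name as Klf2, its trafficking targets and its upstream factor, with their levels in the spinal cord (CNS) and draining lymph nodes (dLN) already known. Their CNS-to-dLN differences are therefore given as a description, without a test.

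CD44+ effector CD4 cells were sorted at disease onset from the CNS and from pooled dLN of wild type C57BL/6 mice with experimental autoimmune encephalomyelitis (EAE), a mouse model of multiple sclerosis induced here by immunization with MOG, a myelin protein. RNA of the cells was sequenced in 2 CNS libraries and 2 dLN libraries, all wild type, and the age of the mice is not given. The labels describe cells processed freshly after sorting, while the study's methods describe a stimulation with PMA and ionomycin, which mimics signalling through the T cell receptor, before RNA was purified. Levels are FPKM, fragments normalized to transcript length and to the mapped fragments of the library, summed over the transcripts of a gene.

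T cells leave a lymph node by following sphingosine 1-phosphate (S1P), a lipid that is abundant in blood and lymph and scarce in tissue. KLF2 is a zinc finger transcription factor of quiescent T cells that binds the S1pr1 promoter, and FOXO1, which is kept out of the nucleus by PI3K and AKT signalling, maintains Klf2 transcription. T cell receptor signalling lowers KLF2, while CD69 binds the S1P1 receptor and takes it off the cell surface.

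The bases before the transcription start are shown for Klf2 and for the S1P receptor genes with a match to the CCACCC box that KLF factors bind. The sequences are from RefSeq on GRCm38.p6, read 5′ to 3′ on the strand of the gene, for Klf2 at chr8:72318812-72319061 (+ strand), for S1pr4 at chr10:81500138-81500387 (− strand) and for S1pr5 at chr9:21248444-21248693 (− strand). Capitals mark CCACCC or its reverse complement GGGTGG.
Klf2: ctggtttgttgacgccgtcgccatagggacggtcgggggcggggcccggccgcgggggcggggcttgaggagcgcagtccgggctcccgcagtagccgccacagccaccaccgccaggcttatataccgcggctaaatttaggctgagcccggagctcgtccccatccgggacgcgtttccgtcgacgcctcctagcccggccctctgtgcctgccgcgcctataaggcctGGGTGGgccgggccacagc
S1pr4: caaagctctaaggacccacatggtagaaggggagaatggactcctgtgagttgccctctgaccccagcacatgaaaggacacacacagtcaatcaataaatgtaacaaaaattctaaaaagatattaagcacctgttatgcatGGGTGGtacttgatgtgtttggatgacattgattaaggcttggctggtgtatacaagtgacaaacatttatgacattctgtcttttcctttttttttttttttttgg
S1pr5: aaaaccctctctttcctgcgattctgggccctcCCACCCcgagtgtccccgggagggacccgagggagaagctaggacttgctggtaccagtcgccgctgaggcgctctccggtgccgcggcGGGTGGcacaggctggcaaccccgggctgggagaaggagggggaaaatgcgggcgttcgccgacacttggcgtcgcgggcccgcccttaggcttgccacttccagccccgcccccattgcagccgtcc

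Of the 8 genes, 6 had a promoter in the RefSeq table, running from 250 bases before to 50 bases after the start, and S1pr1 and Cd69 had none. CCACCC was found on either strand in 4 of these 6, with 1 match in Klf2, 3 in Klf3, 1 in S1pr4 and 2 in S1pr5, and in 31.5% of all 32851 promoters of the same length. The Klf2 match lay between −19 and −14 from its start, and the S1pr4 match between −107 and −102. The FOXO core GTAAACA, held by 3.65% of all promoters, and the AP-1 motif TGANTCA, held by 7.81%, had no match in the 6 windows on either strand. The GC content ranged from 35.3% in Gpr183 and 41.0% in S1pr4 to 69.3% in Klf2 and S1pr5 and 76.7% in Klf3, beside a median of 52.7% over all promoters. These matches are letters in a window and carry no measurement of binding.

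Libraries held an estimated 18.5 M to 22.1 M fragments each, as read from the size of the smallest FPKM steps. Across genes, replicates correlated at 0.976 in the CNS and 0.986 in the dLN on the log2 scale. Of 10634 genes tested, each averaging 1 FPKM or more in either tissue, 7968 (74.9%) differed between tissues at an adjusted p under 0.05 in limma, 4016 (37.8%) higher and 3952 (37.2%) lower in the CNS, with a median log2 ratio over all tested genes of 0.05. The 2 libraries of a tissue are not stated to come from separate groups of mice, so p-values measure only the spread between these libraries. CD4 T cell transcripts were present in each library, with Cd4 at 502 and 531 FPKM in the CNS and 82.0 and 66.7 FPKM in the dLN. The Y-linked gene Eif2s3y had 44.7 and 34.7 FPKM in the CNS and was listed at 0 in both dLN libraries, so the tissue and the sex of the mice cannot be told apart.

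All 8 genes were higher in both CNS libraries than in either dLN library. Of all tested genes, 89.4% had libraries that did not overlap between the tissues, and 45.7% had both CNS libraries higher. The log2 ratios of the 8 genes, on log2(FPKM + 1), ran from 0.41 for Gpr183 to 5.86 for Klf2 with a median of 1.26. The ratios varied far more among the 8 genes than between library pairs of a gene, since Klf2 and S1pr1 differed by over an order of magnitude and Foxo1 and Gpr183 by less than 1.5-fold. Of the 8 genes, 7 passed the filter on low values. In bulk RNA, a lower level from fewer cells of a type and from less RNA per cell cannot be told apart.

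**Figure D1:**
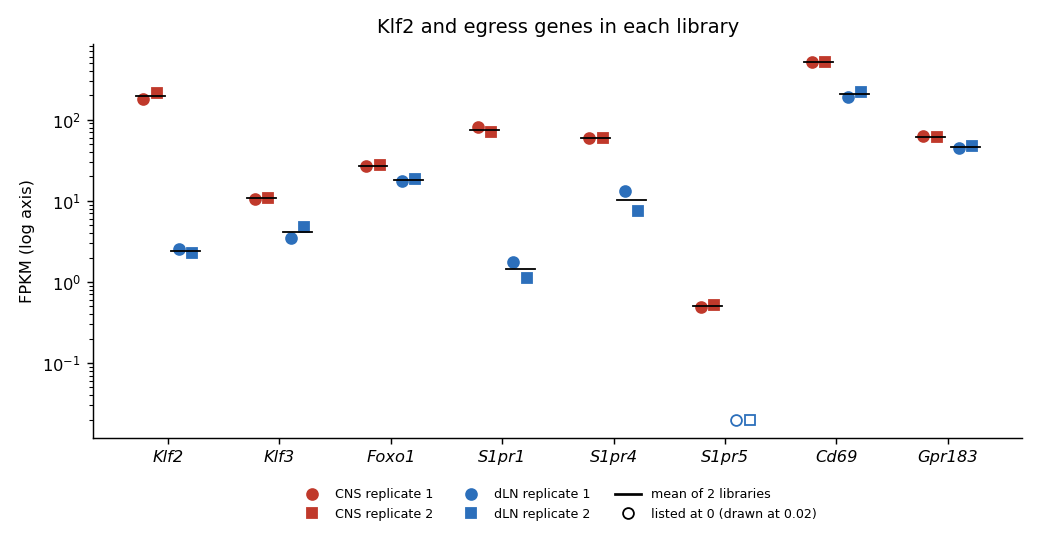
FPKM (log axis) of the 8 genes in each library, with circles and squares for replicates 1 and 2, black bars for the mean of 2 libraries and open symbols for values listed at 0. The CNS libraries (red) lie above the dLN libraries (blue) for each gene, with the widest gap for Klf2 (179 and 216 against 2.52 and 2.28 FPKM).

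Foxo1 encodes the forkhead factor upstream of Klf2. It lies on chr3 at 52268337 to 52350109 (mm10, + strand) and is annotated with 3 exons. Its level was 26.6 and 27.5 FPKM in the CNS and 17.7 and 18.6 FPKM in the dLN, a 1.49-fold difference of means with CNS-to-dLN library pairs from 1.43 to 1.55. Its spread within a tissue was small, at 27.0 ± 0.644 and 18.1 ± 0.627 FPKM (SD, n = 2), and the 2 tissues did not overlap. Annotated transcripts of Gm20402, on the other strand, and of Gm38034 overlap the gene.

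Klf2 lies on chr8 at 72319062 to 72321654 (+ strand, 3 exons) and had 179 and 216 FPKM in the CNS against 2.52 and 2.28 FPKM in the dLN. The means, 197 ± 25.9 and 2.40 ± 0.171 FPKM (SD, n = 2), differed 82.4-fold, with library pairs from 71.2 to 94.9. Both dLN libraries were low but above the floor of 3 fragments, since their FPKM correspond to an estimated 76 and 82 fragments, beside 6239 and 7596 in the CNS. Ranked by FPKM among all gene symbols, Klf2 stood at 410 and 360 in the CNS and at 8419 and 8349 in the dLN. Its log2 ratio of 5.86 exceeded that of 99.9% of tested genes.

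Relative to its upstream factor, the ratio of Klf2 to Foxo1 FPKM was 6.74 and 7.86 in the CNS and 0.142 and 0.122 in the dLN. The factor transcript thus exceeded that of its regulator in the CNS libraries and fell below it in the dLN libraries.

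Klf3 encodes a KLF family member that acts mainly as a repressor and whose gene is itself a KLF target. It lies on chr5 at 64803523 to 64830129 (+ strand, 6 exons), where transcripts of Gm20033 on the other strand and C230096K16Rik on the same strand overlap it. Its level was 10.5 and 10.95 FPKM in the CNS and 3.50 and 4.78 FPKM in the dLN, a 2.58-fold difference with library pairs from 2.19 to 3.13. The CNS libraries were nearly equal and the dLN libraries were spread more widely, without overlap.

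Within the 17 KLF genes summed, the total was 562 and 614 FPKM in the CNS and 94.6 and 103 FPKM in the dLN. Klf2 made up 31.9% and 35.1% of it in the CNS and 2.66% and 2.21% in the dLN, and Klf6, an early response KLF gene, made up 53.4% and 48.7% in the CNS and 33.7% and 31.9% in the dLN. Klf2 was thus the KLF gene with the next highest level after Klf6 in both CNS libraries, and stood at places 7 and 8 in the dLN libraries. In the dLN, Klf16 took 27.4% and 28.9% and Klf13 took 16.8% and 15.9%, beside 1.90% and 2.09%, and 5.56% and 5.51%, in the CNS. Klf3 kept a small share throughout, from 1.78% to 4.64%.

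Of the other KLF genes, 8 of 15 were tested, of which 6 were higher and 2 lower in the CNS, with a median log2 ratio of 1.17. All 8 were thus called. Of all tested genes 74.9% were called, 37.8% higher and 37.2% lower. Klf6 had 300 and 299 FPKM in the CNS against 31.9 and 33.0 in the dLN (log2 ratio 3.17, adjusted p = 8.12e-05). Klf10, which TGF-beta induces, had 13.7 and 15.6 against 3.69 and 3.58 FPKM (log2 ratio 1.76, adjusted p = 0.00018). Klf9 went the other way with 1.34 and 1.64 FPKM in the CNS against 5.61 and 6.90 FPKM in the dLN (log2 ratio −1.54, adjusted p = 0.000579), and so did Klf16 (log2 ratio −1.18, adjusted p = 0.000964). Klf4 had 4.41 and 11.5 FPKM in the CNS against 1.98 and 2.33 FPKM in the dLN (log2 ratio 1.39, adjusted p = 0.0288). Without a filter the Klf4 call was lost (adjusted p = 0.0873), and 7 of 13 other KLF genes were higher and 2 lower. The higher level in the CNS therefore extended to most tested KLF genes. The ratio of Klf2 was the largest among the 10 KLF genes with a ratio here.

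**Figure D2:**
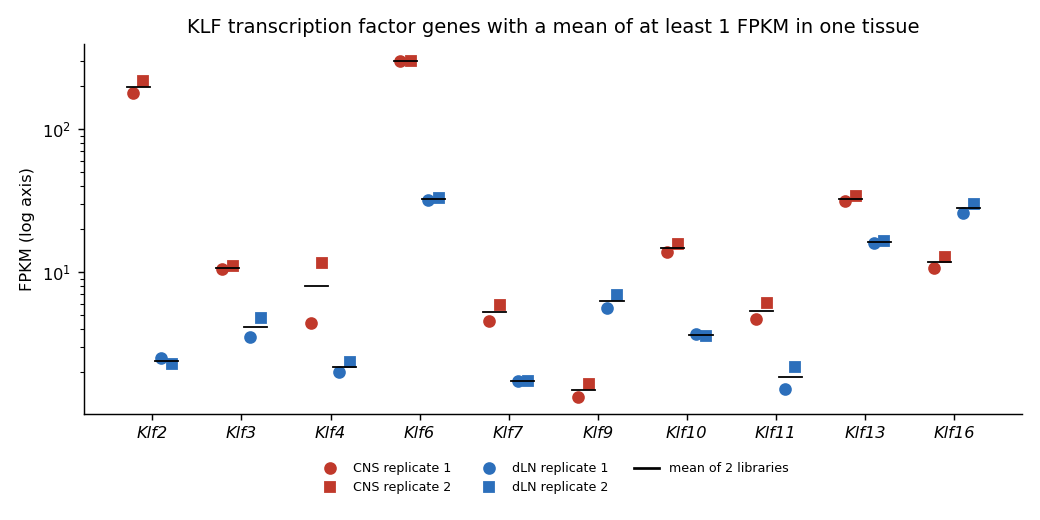
FPKM (log axis) of the KLF genes that averaged 1 FPKM or more in either tissue, with circles and squares for replicates 1 and 2 and black bars for the mean of 2 libraries. Klf2 separates furthest between the CNS (red) and the dLN (blue), Klf6 is the highest KLF gene in each library, and Klf9 and Klf16 are lower in the CNS.

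S1pr1 encodes the S1P1 receptor, the main receptor that carries T cells out of lymph nodes. It lies on chr3 at 115710433 to 115715055 (− strand, 2 exons) and had 80.1 and 70.4 FPKM in the CNS against 1.78 and 1.13 FPKM in the dLN. The means, 75.3 ± 6.90 and 1.46 ± 0.462 FPKM (SD, n = 2), differed 51.7-fold, with library pairs from 39.5 to 70.9. The dLN values rest on an estimated 94 and 71 fragments, so both libraries were low but above the floor, and its log2 ratio of 4.97 exceeded that of 99.8% of tested genes.

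S1pr4 encodes a lymphoid S1P receptor. It is a gene of 1 exon on chr10 at 81497745 to 81500137 (− strand), with 58.8 and 59.3 FPKM in the CNS and 13.1 and 7.48 FPKM in the dLN. The difference was 5.75-fold with library pairs from 4.498 to 7.93, and the width of that range came from the dLN libraries (10.3 ± 3.96 FPKM, SD, n = 2) rather than from the nearly equal CNS libraries (59.1 ± 0.356 FPKM).

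S1pr5 encodes an S1P receptor known from NK cells, which it helps leave bone marrow and lymph nodes. It lies on chr9 at 21242917 to 21248443 (− strand, 3 exons), where a transcript of Gm48303 lies on the other strand. Its level was low in the CNS, at 0.490 and 0.521 FPKM or an estimated 24 and 26 fragments, and it was listed at 0 in both dLN libraries. With each dLN library taken at or below a floor of 3 fragments, the CNS mean was at least 7.84-fold the dLN mean. Its mean was under 1 FPKM in both tissues, so it was the gene of the 8 that did not pass the filter on low values.

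NK cell markers were also higher in the CNS. Klrb1c had 2.53 and 3.22 FPKM in the CNS against 0.0442 and 0 FPKM in the dLN (log2 ratio 1.92, adjusted p = 0.000432), and Klre1 had 1.44 and 1.67 against 0 and 0.0621 FPKM (log2 ratio 1.31, adjusted p = 0.00133). Their level in CNS replicate 2 was 1.27-fold and 1.16-fold that in CNS replicate 1, beside 1.06-fold for S1pr5, while Ncr1 had 0 and 0.581 FPKM in the CNS and 0.0423 and 0 FPKM in the dLN. Over the 8 NK markers, which include Tyrobp and Fcer1g that myeloid cells also express, the summed level was 8.54 and 99.2 FPKM in the CNS and 0.316 and 0.349 FPKM in the dLN. Klra1 was at 0 in each library. Of the 4 NK markers tested, 3 were higher in the CNS, beside 37.8% of all tested genes. The Fcer1g call was lost with eBayes without trend (adjusted p = 0.0527) and without a filter (0.122), which left 2 higher. With a pseudocount of 0.1 or the replicate block, 4 were higher. The part of NK cells in the S1pr5 level was not tested.

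The 5 S1P receptor genes together had 146 and 137 FPKM in the CNS and 19.9 and 13.4 FPKM in the dLN, and their make-up differed. S1pr1 was the leading receptor transcript in the CNS with 54.9% and 51.4% of the sum, beside 8.94% and 8.46% in the dLN. S1pr4 had 40.3% and 43.4% in the CNS and led in the dLN with 65.6% and 56.0%. S1pr2, which couples to G12 and G13 and holds lymphocytes back from S1P, had 4.48% and 4.59% in the CNS and 25.1% and 34.9% in the dLN. The FPKM of S1pr2 itself differed far less than its share, with 6.55 and 6.28 FPKM in the CNS and 5.01 and 4.66 FPKM in the dLN (log2 ratio 0.35, adjusted p = 0.0248). That call was lost when the libraries were scaled to the same FPKM sum (adjusted p = 0.18), without a filter (adjusted p = 0.0539) or with any of the 4 libraries left out. S1pr3 stayed at or below 0.301 FPKM in each library and was not tested.

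**Figure D3:**
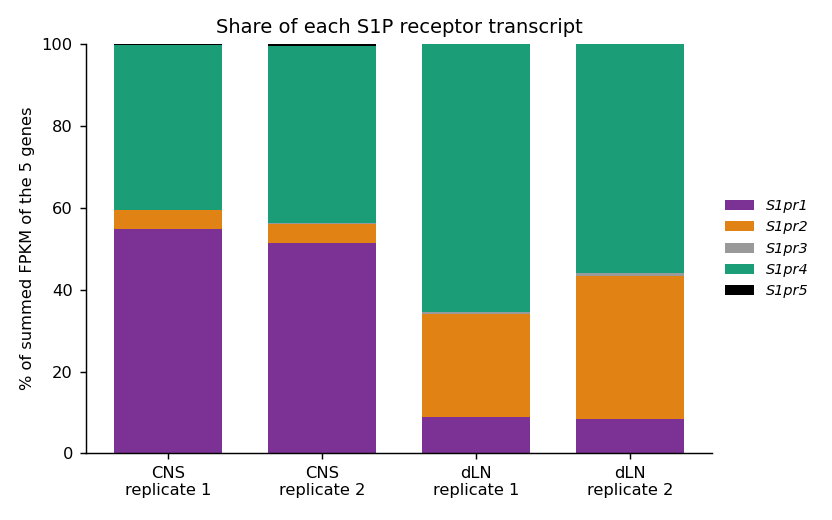
Share of each S1P receptor gene, as a percent of the summed FPKM of the 5 genes, in each of the 4 libraries (stacked bars). S1pr1 makes up 54.9% and 51.4% in the CNS and 8.94% and 8.46% in the dLN, where S1pr4 and S1pr2 take most of the sum.

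Cd69 encodes the early activation antigen that retains T cells in tissue by binding S1P1. It lies on chr6 at 129267325 to 129275369 (− strand, 5 exons) and was the highest of the 8 genes in each library, with 516 and 510 FPKM in the CNS and 189 and 221 FPKM in the dLN. The means, 513 ± 3.96 and 205 ± 22.9 FPKM (SD, n = 2), differed 2.50-fold, with library pairs from 2.31 to 2.73. Cd69 and S1pr1, which oppose each other at the protein level, were thus both higher in the CNS, but by unequal factors. The ratio of Cd69 to S1pr1 FPKM was 6.43 and 7.25 in the CNS and 106 and 196 in the dLN.

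Gpr183 encodes EBI2, the receptor for oxysterols that places activated CD4 T cells within lymph nodes and attracts them to inflamed tissue. It lies on chr14 at 121952331 to 121965193 (− strand, 2 exons), inside Ubac2 on the other strand, and without a stated use of strand reads from the 2 genes cannot be told apart where they overlap. Its level was 62.4 and 60.8 FPKM in the CNS and 45.0 and 47.2 FPKM in the dLN, a 1.34-fold difference with library pairs from 1.29 to 1.39. This was the smallest ratio of the 8 genes, although replicates lay close together (61.6 ± 1.17 and 46.1 ± 1.52 FPKM, SD, n = 2) and the tissues did not overlap. Of 4 enzymes that make or degrade its ligand, 2 were tested and 1 was higher in the CNS. The share higher among all tested genes was 37.8%. Ch25h was the gene called, with 0.637 and 2.35 FPKM against 0.185 and 0.0776 FPKM (log2 ratio 1.05, adjusted p = 0.0497). That call was lost without a filter (adjusted p = 0.11), with a minimum of 5 FPKM, which removes the gene, with a replicate block (adjusted p = 0.0541) and with either dLN library left out.

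By level, the order in the CNS was Cd69, Klf2, S1pr1, Gpr183, S1pr4, Foxo1, Klf3 and S1pr5. The closest neighbours there were Gpr183 and S1pr4, whose nearest libraries had 60.8 and 59.3 FPKM. In the dLN the order was Cd69, Gpr183, Foxo1, S1pr4, Klf3, Klf2, S1pr1 and S1pr5, and no neighbours overlapped between libraries, although S1pr1 and Klf2 came close at 1.78 and 2.28 FPKM. Klf2 and S1pr1 therefore stood near the top of the order in the CNS and near its lower end in the dLN, while Cd69 was first in both.

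The genes with the profile most like Klf2 across the 4 libraries, by distance of centred log2 values among 6403 genes, were Epsti1 (distance 0.32), Pydc3 (0.42), Tsc22d3 (0.45), the Y-linked Eif2s3y (0.69) and Rtp4 (0.71). Epsti1, an interferon-induced gene, had 233 and 214 FPKM in the CNS and 3.45 and 2.55 FPKM in the dLN. Tsc22d3, which encodes the glucocorticoid-induced leucine zipper GILZ, had 125 and 132 FPKM against 2.02 and 1.94 FPKM. Those nearest to S1pr1 were Txnip (0.18), Ifngr1 (0.19), P2rx7 (0.20), Gimap7 (0.20) and Ifit1 (0.22), and those nearest to Cd69 were Fundc1 (0.12), Coro7 (0.12), Evi2a (0.13), Impa2 (0.14) and Rras2 (0.14). With 4 libraries in 2 tissues, likeness mostly means a like difference between the tissues.

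Other targets of KLF2 and FOXO1 were mostly higher in the CNS, with 9 of 15 tested genes higher, 2 lower and 4 not past the threshold, and a median log2 ratio of 1.38. Of all tested genes 37.8% were higher, and the share called in either direction was close to that of all genes. The lower count was 0 with either dLN library left out, 1 without CNS replicate 1 and 3 without CNS replicate 2. Itgb7, the beta 7 integrin of gut homing that KLF2 induces, had 360 and 391 FPKM in the CNS against 28.3 and 18.9 in the dLN (log2 ratio 3.96, adjusted p = 0.000123). Il7r, the IL-7 receptor chain that FOXO1 induces, had 181 and 148 against 11.9 and 9.46 FPKM (log2 ratio 3.82, adjusted p = 9.15e-05). The PI3K inhibitor gene Pik3ip1 was higher by a log2 ratio of 3.28 (adjusted p = 8.29e-05), and the cell cycle inhibitor gene Cdkn1b by 2.58.

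Ccr7 of the same list, the receptor for entry into the T cell zone, had 5.61 and 13.95 FPKM in the CNS against 25.9 and 21.3 FPKM in the dLN and was lower (log2 ratio −1.30, adjusted p = 0.0331). The Ccr7 call was lost without a filter (adjusted p = 0.0949), without dLN replicate 1 (0.132) and without dLN replicate 2 (0.0893).

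Upstream of Klf2, 18 genes of the FOXO factors and the PI3K and AKT arm were tested, of which 10 were higher, 4 lower and 4 not past the threshold (median log2 ratio 0.71). The 14 calls stand beside 74.9% called among all tested genes, 37.8% higher and 37.2% lower, and their share was close to that. Both signs of PI3K regulation were among the higher genes. Inpp5d, which encodes the phosphatase SHIP-1 that removes a PI3K product, had a log2 ratio of 2.50 (adjusted p = 0.000381), and Pik3r1, the regulatory subunit of PI3K, had 2.02 (adjusted p = 0.00019). The kinase gene Sgk1, whose product inactivates FOXO factors, had a log2 ratio of 1.61.

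The ERK5 and MEF2 arm, which drives Klf2 in endothelium and T cells, and the ubiquitin ligases that degrade KLF2 were divided, with 3 of 9 tested genes higher, 3 lower and a median log2 ratio of 0.16. These counts stand beside 37.8% higher and 37.2% lower among all tested genes. Map3k3, the kinase at the head of the arm, was higher (log2 ratio 1.39, adjusted p = 0.000877), while Mapk7, which encodes ERK5 itself, was lower (log2 ratio −0.63, adjusted p = 0.00391, or 0.101 when the highest transcript stood for the gene). Of the ligase genes, Fbxw7 was lower (log2 ratio −0.89, adjusted p = 0.000754). Wwp1 had a log2 ratio of 0.43 (adjusted p = 0.0309), a call that was lost with the highest transcript (0.0513), the same FPKM sum (0.124), no filter (0.0771), and without CNS replicate 1 (0.135), CNS replicate 2 (0.082) or dLN replicate 2 (0.148). The counts moved with the setting, to 1 higher and 3 lower with the same FPKM sum, 5 and 3 with the same upper quartile, 1 and 3 without a filter, and 1 and 2 without CNS replicate 1 or without dLN replicate 2.

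Among the S1P metabolism genes and other receptors, 7 were tested, of which 3 were higher and 3 lower in the CNS, with a median log2 ratio of −0.54, and 2 were higher and 4 lower with the same FPKM sum. Among all tested genes 37.8% were higher and 37.2% lower. Sphk1, which encodes the kinase that makes S1P, had 0.172 and 0.583 FPKM in the CNS against 5.99 and 6.72 FPKM in the dLN (log2 ratio −2.43, adjusted p = 0.000333). Sgpl1, the lyase that degrades S1P irreversibly, was also lower at 16.6 and 15.8 against 37.1 and 37.9 FPKM (log2 ratio −1.16, adjusted p = 0.000279). The phosphatase gene Sgpp1, whose product returns S1P to sphingosine, was higher at 20.9 and 17.6 against 9.94 and 8.98 FPKM (log2 ratio 0.95, adjusted p = 0.00163). Sphk2, which encodes the other S1P kinase, was lower (log2 ratio −0.56, adjusted p = 0.00785), so both kinase genes were lower in the CNS, while genes for enzymes that remove S1P were lower or higher.

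Downstream of the receptors, 15 of 19 G protein, kinase and motility genes were higher in the CNS and 2 were lower, with a median log2 ratio of 1.47. Of all tested genes 37.8% were higher and 37.2% lower. With the same upper quartile 16 genes of this list were higher and 0 lower. With the same FPKM sum 13 were higher and 3 lower. The lower count was 1 with either CNS library left out and 0 with either dLN library left out. Rac2, the haematopoietic Rac GTPase, had 509 and 543 FPKM in the CNS against 59.7 and 43.5 in the dLN (log2 ratio 3.34, adjusted p = 0.000118). Arrb2, which encodes the beta-arrestin that desensitizes receptors, had 129 and 137 against 16.4 and 12.4 FPKM (log2 ratio 3.13, adjusted p = 0.000109). Gnai2, the inhibitory G protein subunit through which S1P1 signals, had 427 and 443 against 68.1 and 43.1 FPKM (log2 ratio 2.98, adjusted p = 0.000309). Adrbk1, which encodes GRK2, the kinase that takes S1P1 off the surface of cells in blood, was higher at 116 and 124 against 45.5 and 40.0 FPKM (log2 ratio 1.47, adjusted p = 0.000237).

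**Figure D4:**
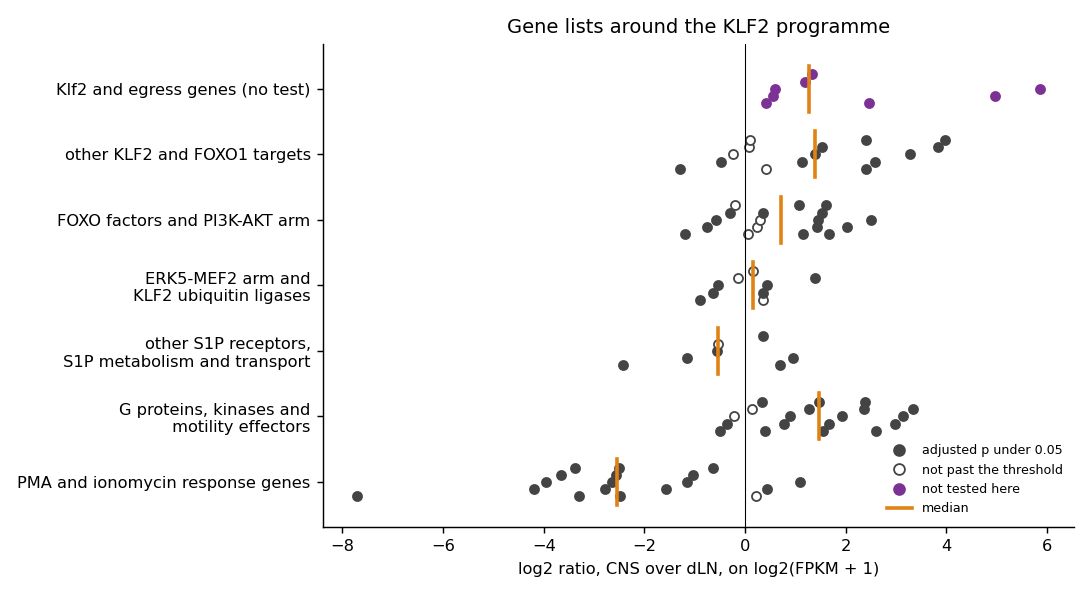
Log2 ratio of CNS over dLN, on log2(FPKM + 1), for the 8 genes (purple, no test) and for the tested genes of 6 lists, filled where the adjusted p was under 0.05 and open otherwise, with orange bars for the median. The medians are 1.26 for the 8 genes, 1.38 for other KLF2 and FOXO1 targets and −2.54 for the PMA and ionomycin response genes.

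Genes that PMA and ionomycin induce were mostly lower in the CNS. Of 18 tested, 15 were lower and 2 higher in the CNS, or 1 higher with the same FPKM sum, with a median log2 ratio of −2.54. Among all tested genes 37.2% were lower and 37.8% higher. Il2 had 18.2 and 38.8 FPKM in the CNS against 5363 and 6176 FPKM in the dLN (log2 ratio −7.70, adjusted p = 0.000101), and the growth and activation genes Egr2, Myc and Nr4a3 had log2 ratios of −4.19, −3.95 and −3.67. Cd69, an activation gene itself, was among the genes higher in the CNS. The part of the response to stimulation in the levels of Klf2 and the egress receptors was not tested.

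Endothelial cells also express Klf2 and S1pr1, and their markers differed between tissues. Of 11 markers, 7 were tested and 6 were higher in the CNS, beside 37.8% of all tested genes. The 11 markers summed to 28.1 and 44.6 FPKM in the CNS and 15.1 and 12.1 FPKM in the dLN. Most of the dLN sum was Pecam1, with 12.02 and 9.66 FPKM, beside 18.72 and 20.06 FPKM in the CNS. Egfl7 had 2.96 and 2.31 FPKM in the dLN and 0.464 and 2.58 FPKM in the CNS. Each other marker stayed at or below 0.0971 FPKM in the dLN, and 5 of the 11 were at 0 in both dLN libraries. The defining marker Cdh5 had 0.599 and 1.96 FPKM in the CNS, and Vwf had 3.54 and 8.23 FPKM. From CNS replicate 1 to CNS replicate 2 the endothelial markers were higher by a median of 2.44-fold and in 11 of 11 genes. Their ratios ran from 1.01 for Tek and 1.07 for Pecam1 to 5.69 for Flt1. Klf2 was 1.20-fold and S1pr1 0.878-fold of its level in replicate 1. The part of endothelial cells in the Klf2 and S1pr1 levels was not tested.

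Microglia and macrophage markers summed to 23.5 and 174 FPKM in the CNS and 0.515 and 0.254 FPKM in the dLN, where 7 of 12 were at 0 in both libraries. Of 9 tested, 7 were higher, beside 37.8% of all tested genes, or 6 with eBayes without trend and 9 with a pseudocount of 0.1. Their median log2 ratio was 2.45, or 3.02 without CNS replicate 1 and 1.61 without CNS replicate 2. The CNS libraries differed widely, with Lyz2 at 3.22 and 92.1 FPKM and Cd14 at 1.87 and 30.5 FPKM. These markers were higher in CNS replicate 2 by a median of 4.65-fold, in 11 of 12 genes. Between the CNS libraries the 8 egress genes ranged from 0.878 to 1.20 and the T cell identity genes from 0.885 to 1.19. B cell markers reached 1.22 and 1.82 FPKM in the CNS and 0.502 and 0.297 FPKM in the dLN. Pax5 was at 0 in each library, and 1 of 6 markers was tested and higher, beside 37.8% of all tested genes. CD8 markers had 3.79 and 5.40 FPKM against 3.42 and 3.40 FPKM, with 1 tested and not past the threshold. Neuron and glia markers summed to 49.9 and 49.9 FPKM against 55.7 and 58.0 FPKM. Most of each sum was Mbp, with 48.6 and 44.5 FPKM in the CNS and 55.5 and 57.7 FPKM in the dLN. Gfap had 0.655 and 2.51 FPKM in the CNS and was at 0 in both dLN libraries. Snap25 had 0.316 and 1.80 against 0.00279 and 0.0246 FPKM. Of these 3 tested genes, Gfap was called higher, Mbp lower and Snap25 neither. With all 4 libraries kept, the Gfap call was lost without a filter (adjusted p = 0.0787). The Mbp call was lost with the same upper quartile (0.22), the replicate block (0.0584) and eBayes without trend (0.0531). Of the 9 T cell identity genes, 5 were higher and 3 lower in the CNS, or 2 lower with the same upper quartile, beside 37.8% and 37.2% of all tested genes. The part of these cells in the CNS levels of the egress genes was not tested.

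**Figure D5:**
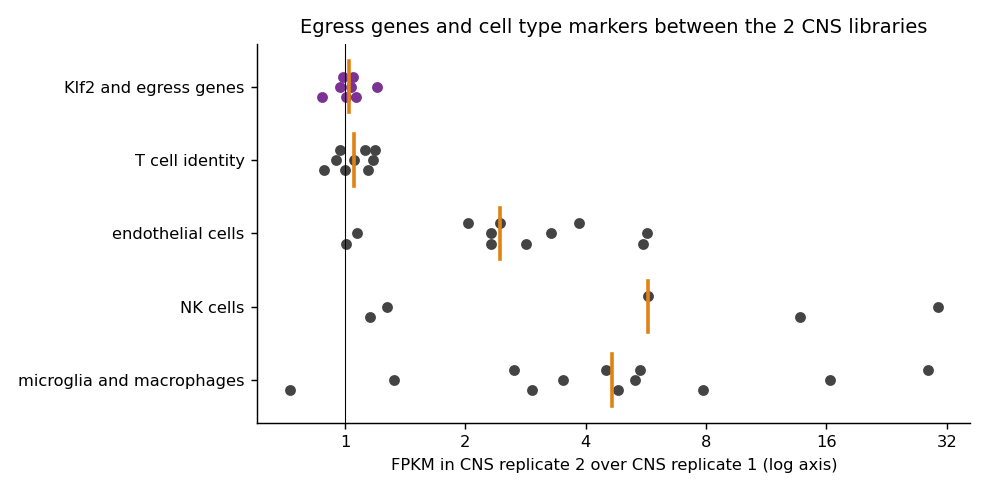
Ratio of FPKM in CNS replicate 2 over CNS replicate 1 (log axis) for the 8 genes (purple) and for markers of cell types that were above 0 in both libraries (grey), with orange bars for the median. The 8 genes lie between 0.878 and 1.20, and the endothelial, NK and microglia and macrophage markers have medians of 2.44, 5.71 and 4.65. The NK median is over 5 genes and is the value of Klra8, which had only 0.0997 and 0.570 FPKM. The NK markers run from 1.16 for Klre1 and 1.27 for Klrb1c to 30.4 for Tyrobp, which myeloid cells also express.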

How the data were processed

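RNA of CD44+ effector CD4 cells was sequenced with TruSeq libraries on an Illumina HiSeq2500. The values deposited by the authors, after trimming and mapping, are FPKM of 33819 RefSeq transcripts (build mm10) in a table for each tissue. The aligner, the program that gave FPKM and its use of strand are not given in the sources used here. The header of the CNS table joins both library names in the same field, and its columns were read in the order of the names.

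FPKM were summed by gene symbol, leaving out 565 transcripts without a symbol (0.142% to 0.446% of the FPKM of a library). Each of the 8 genes has 1 transcript. Genes averaging 1 FPKM or more in either tissue were tested on log2(FPKM + 1) with limma 3.58.1 (lmFit, eBayes with trend) in R 4.3.3, modelling tissue alone, and p-values were adjusted by Benjamini-Hochberg. Such a ratio understates the change of low genes, so linear folds are given for the 8 genes. Depth came from the steps of low FPKM over effective length, with 90.6% to 93.5% of low values within 0.05 of a whole fragment and a largest error of 0.07% on simulated counts. Intervals and floors cover counting error only. Starts are counted from 1, and strand and overlaps are from GENCODE M21.

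The 8 genes, the lists and the rules were chosen with earlier results of these data known. Up to 4 tested genes per list with the largest ratios, the S1P receptors and genes a result turns on are named, and Ccr7, Klf16, Wwp1 and Adrbk1 were chosen after their values were seen. Some genes of the lists are not reported here. Other steps ran in Python 3.11.15 (numpy 2.4.6, pandas 2.3.3, matplotlib 3.10.9).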

Additional observations from a re-analysis of the deposited data

How the results depend on the processing

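The log2 ratios of Klf2 and the 7 other genes stayed above 0 under each alternative tried: another pseudocount, the highest transcript, 2 other scalings and leaving out each library. With a pseudocount of 0.1 the ratio was 6.30 for Klf2, 5.63 for S1pr1 and 2.60 for S1pr5. Scaling to the same FPKM sum moved the median of all tested genes from 0.05 to −0.13, and gave 5.70 for Klf2, 0.36 for Foxo1, 0.56 for S1pr5, 1.13 for Cd69 and 0.22 for Gpr183. Scaling to the same upper quartile moved it to 0.16, and gave 0.68 for Foxo1, 0.61 for S1pr5, 1.46 for Cd69 and 0.54 for Gpr183. The count of all genes called stayed between 6518 and 8477 except with a minimum absolute log2 ratio of 1, which by construction left 4168. The share called moved with the filter, from 7968 of 10634 genes to 8477 of 16782 without a filter and 6518 of 8141 with a minimum of 5 FPKM. Of the calls, 50.4% were higher in the CNS, 43.1% with the same sum and 55.6% with the same upper quartile. The replicate block gave 7828 calls. Replicate numbers are not stated to mark pairs and were not treated as pairs. Across genes, the difference between replicates in the CNS correlated at 0.0933 with that in the dLN. With 1 such difference per tissue, this value cannot decide whether the libraries are paired. In the ERK5 and MEF2 list the number of calls ranged from 3 to 5 with a library left out, beside 6 of 9. In the oxysterol list the 1 call became 0 without a filter, 0 with a minimum of 5 FPKM and 0 with the replicate block, and 0 to 2 with a library left out. The depth limits S1pr5, whose dLN value may lie anywhere under 3 fragments per library.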
